A study of Oryza sativa Japonica Group with 15 samples.

Results

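Os09g37430, Os09g37440 and Os09g37490 are 3 genes of the SAUR (small auxin up RNA) family that lie close together on chromosome 9 of rice, and the study's tables name them OsSAUR48, OsSAUR49 and OsSAUR54. Each was read by 1 probe set out of 57381 on the Affymetrix rice genome array, and 10 further SAUR genes had a probe set of their own. The 3 genes were chosen by their flank difference, since their transcripts were more abundant in the lower than in the upper flank of the shoot base after the seedling was laid on its side, so every difference between flanks is given for them as a description, without a test. The level over both flanks together is another contrast, and it was tested. It draws on the same arrays, those of the lower flank at 6 h among them, and the genes were chosen with earlier results known. Its p-values are therefore no support from values that the choice left unused. The probe sets of the 3 genes were matched through the study's own tables, and of these only that of Os09g37490 also carries a gene in the array's annotation. The probe set for Os09g37440 was given in the study's tables to Os09g37446, annotated as an expressed protein, as well. Transcripts of these 2 loci cannot be told apart on this array, and the name Os09g37440 stands for both below. A further probe set of the same design cluster is given to no gene in the sources used and was set aside. It read 1.0 ± 0.21 in the lower and 0.30 ± 0.69 in the upper flank at 6 h (log2 signal, array median 0, mean ± SD, n = 3), and the flanks overlapped. At 0.5 h it read 0.73 ± 0.37 in the lower and 0.70 ± 0.17 in the upper flank, against 0.33 ± 0.34 at 0 h.

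Seedlings of *Oryza sativa* japonica, 21 days old and kept in darkness before the experiment, were reoriented horizontally. Whole shoot bases were taken upright at 0 h, and shoot bases cut into an upper and a lower flank followed 0.5 h or 6 h after the turn, which gives 5 groups of 3 arrays, each array from pooled shoot bases or flanks of untransformed plants. Replicates are described as biological, and nothing in the labels says that they were grown apart, so the p-values measure the spread between these pools. Flanks of plants left upright were not analysed here. Differences from 0 h therefore hold the time in darkness and the cutting of the flanks as well as the turning, and these cannot be told apart, while the upper and the lower flank of 1 time share both. Fewer cells of a type and less RNA per cell cannot be told apart in such tissue pieces either.

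SAUR genes are among the fastest genes to respond to auxin, the hormone that gathers on the lower side of a shoot placed horizontally. Their transcripts are short-lived. The small proteins they encode are known, mainly from SAUR19 and its relatives in Arabidopsis, to promote cell expansion by keeping the plasma membrane proton pump active, and faster expansion on the lower side is what bends a shoot upward. Rice carries many of its SAUR genes side by side in a large cluster on chromosome 9. In the order of RefSeq genes, Os09g37490 lies directly next to Os09g37480 and 3 places before Os09g37500, both SAUR genes.

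Array medians lay between 22.81 and 29.6 on the 5 arrays of replicate 1 and between 17.16 and 23.05 on the other 10, and the added control transcript DapX read 106.6 to 209 on the former and 16.5 to 26.28 on the latter. The part of this difference between replicates in the results was not tested beyond leaving the arrays of replicate 1 out. Markers of the labelled tissue were present: the KNOX genes OSH1 and OSH71, which are expressed at the shoot apex and stem base, stood at percentiles 99 and 97.8 of all probe sets. The KNOX genes OSH6 and OSH43 stood lower, at percentiles 82.6 and 62.1. The 4 KNOX genes summed to between 247.9 and 327.4 times the array median in every array, with overlapping flanks at 6 h (300.4 to 327.4 in the upper and 247.9 to 310.7 in the lower). One KNOX gene, OSH43, had a group mean of 2.74 in the 6 h lower flank and of 0.85 to 1.54 in the others. The 4 root markers lay at percentiles 61.7 to 88.7, and their sum was 23.91 to 41.13 times the array median at 0 h and 36.59 to 52.39 in the flanks. The 3 leaf photosynthesis genes summed to 15.33 to 37.52 at 0 h and 25.14 to 47.27 in the flanks. Of these, CAB2R stood at percentile 90.2, RBCS at 61.7 and RBCS1 at 14.3. The part of these tissue markers in the results was not tested.

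Os09g37430 parted between the flanks within 0.5 h and much further by 6 h. All values are log2 signals with the median of their array set to 0. The 3 arrays at 0 h read 2.39, 2.27 and 2.45. At 0.5 h the upper flank read 1.17, 0.77 and 1.36. The lower flank of that time read 3.25, 3.48 and 3.51. The upper flank had thus dropped below every array of the upright shoot base while the lower flank stood above every one, and the groups did not overlap. At 6 h the upper flank read 2.49, 2.89 and 2.60, just above the range at 0 h. The lower flank at 6 h read 6.35, 6.39 and 6.09. The groups of this gene ran, from low to high, from the upper flank at 0.5 h through 0 h, the upper flank at 6 h and the lower flank at 0.5 h to the lower flank at 6 h, and no neighbours in this order overlapped, although only 0.04 separated the highest array at 0 h from the lowest of the upper flank at 6 h. As deposited signals, the lower flank at 6 h gave 1863, 1671 and 1172 and the upper flank 136, 132 and 109.

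The flank difference of Os09g37430 was 2.31 ± 0.16 (SE, n = 3 per flank) at 0.5 h, the largest in the direction of the lower flank among the 28630 probe sets tested. At 6 h it was 3.62 ± 0.16, the third largest. In this direction only 2 probe sets reached a difference of 2 at 0.5 h, and 12 reached a difference of 3 at 6 h. Taken by pairs of the same replicate number, the difference was 2.08, 2.71 and 2.14 at 0.5 h and 3.86, 3.50 and 3.49 at 6 h, so that each pair alone shows it. The linear signal relative to the array median was also summed over both flanks. Of this sum the lower flank held 83.1% ± 3.20 (SD, n = 3 pairs) at 0.5 h and 92.4% ± 0.993 at 6 h.

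Os09g37440 followed the same course over a smaller range. The whole shoot bases at 0 h read 2.24, 2.43 and 2.57. The upper flank at 0.5 h read 1.68, 1.74 and 1.60, below all of them. The lower flank at 0.5 h read 3.16, 3.24 and 3.42, above all of them. This is the same split to both sides of the upright level as in Os09g37430. At 6 h the upper flank read 2.51, 2.54 and 2.28, within the spread at 0 h. The lower flank read 5.47, 5.57 and 5.26. From low to high the groups ran from the upper flank at 0.5 h through 0 h and the upper flank at 6 h, which overlapped, to the lower flank at 0.5 h and the lower flank at 6 h. The flank difference was 1.59 ± 0.13 at 0.5 h and 2.99 ± 0.13 at 6 h (SE), and the lower flank held 75.1% ± 2.41 and 88.8% ± 0.269 of the flank sum (SD, n = 3 pairs). The 6 h difference varied little between pairs, which gave 2.96, 3.04 and 2.98.

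Os09g37490 differed from both at the early time. At 0 h it read 1.69, 1.34 and 1.93. The upper flank at 0.5 h read 0.41, -0.11 and 1.28, the widest spread of any group of the 3 genes (SD 0.71). The lower flank at 0.5 h read 1.56, 1.90 and 2.20. The upper flank was again below 0 h, by a gap of 0.05, but the lower flank overlapped the upright level. At 6 h the upper flank read 2.09, 2.10 and 2.06. The lower flank read 5.19, 5.21 and 4.77. The order from low to high was the 0.5 h upper flank, 0 h, the 0.5 h lower flank, the 6 h upper flank and the 6 h lower flank, where 0 h overlapped the 0.5 h lower flank and that group overlapped the 6 h upper flank. The flank difference was 1.36 ± 0.29 at 0.5 h and 2.97 ± 0.29 at 6 h (SE). Without replicate 2 of the upper flank at 0.5 h or replicate 3 of it the early difference was as low as 1.04 or as high as 1.74.

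**Figure D1:**
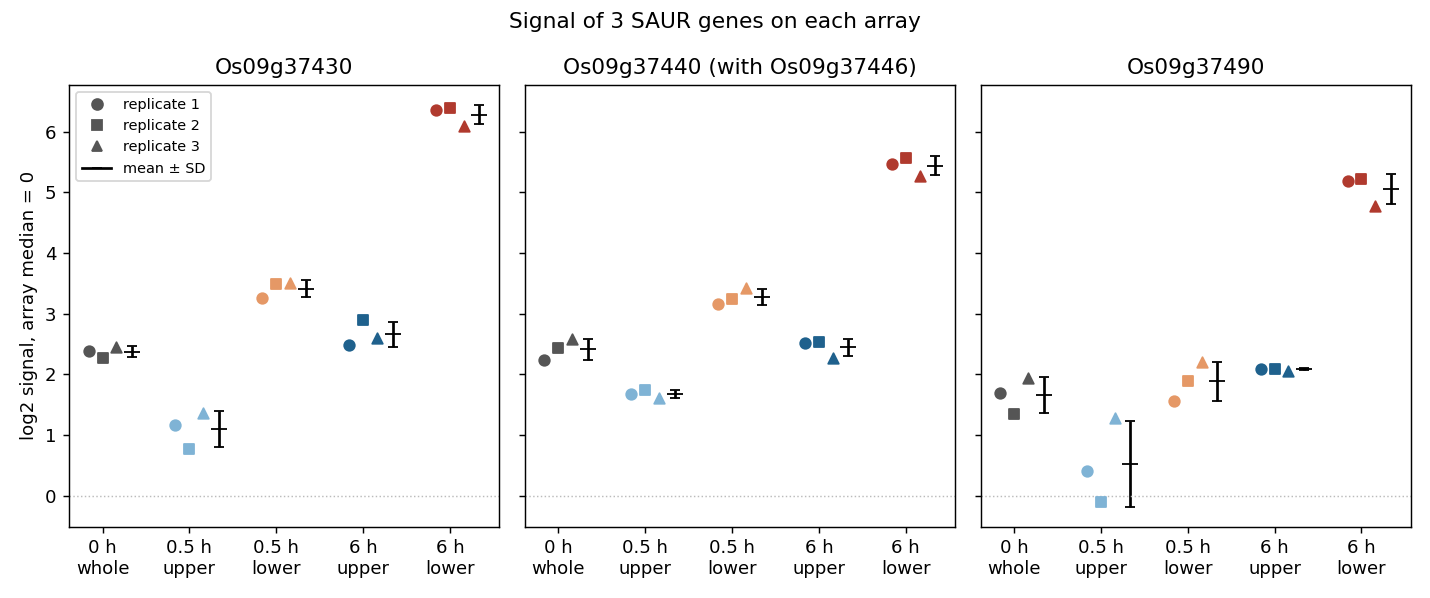
Log2 signal with the array median at 0 (vertical axis) for 3 SAUR genes on each of 15 arrays, by group along the horizontal axis; symbols mark the replicate and the black bars the mean ± SD of 3 arrays. In each panel the lower flank at 6 h lies highest and the upper flank at 0.5 h lowest.

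Across all probe sets tested, all 3 arrays of the lower flank lay above all 3 of the upper flank in 2.99% at 0.5 h and in 7.43% at 6 h, without a test. The 3 SAUR genes were chosen for this difference, so that their place in both shares is fixed by the choice. Against 0 h, all arrays lay above in 5.15% of probe sets for the lower flank at 0.5 h, in 9.14% for that at 6 h and in 14% for the 6 h upper flank, and all lay below in 12.6% for the 0.5 h upper flank. Of the 3 genes 2, 3, 2 and 3 did so in the same order. The flank arrays are those by which the genes were chosen, so these counts are no support either. At 0.5 h, a lower flank wholly above and an upper flank wholly below the upright shoot base was found in 5 probe sets (0.0175%). These were Os09g37430, Os09g37440, a further SAUR gene of the cluster, Os09g37460, LOC4336629 and LOC4332431, of which the last 2 were named after their values had been seen. A choice by flank difference favours such a split, so the place of the SAUR genes among these 5 is a description. For Os09g37430 the lower flank differed from 0 h by 1.04 and the upper flank by -1.27, and for Os09g37440 these differences were 0.86 and -0.74. For LOC4336629 they were 0.29 and -0.28. For Os09g37490, which overlapped 0 h in the lower flank, they were 0.23 and -1.13.

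**Figure D2:**
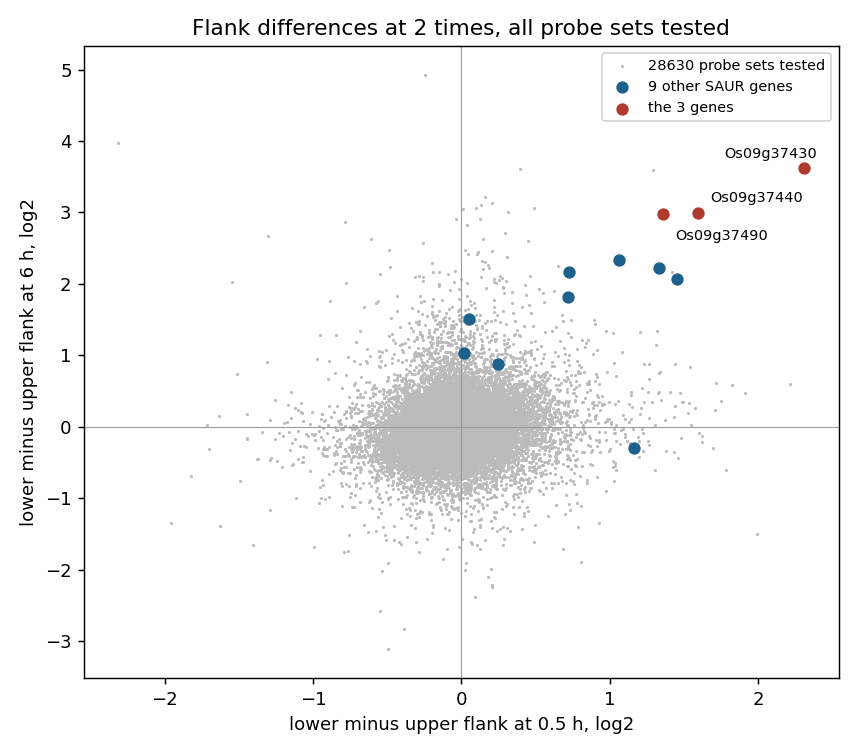
Lower minus upper flank in log2 units at 0.5 h (horizontal axis) and at 6 h (vertical axis) for 28630 probe sets tested (grey), the 3 SAUR genes (red) and 9 other SAUR genes (blue). The 3 genes lie far out on both axes, at 1.36 to 2.31 and 2.97 to 3.62, where few other probe sets lie.

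Over both flanks together, the transcripts of all 3 genes rose by 6 h and did not change detectably by 0.5 h. The mean of the log2 values of both flanks is orthogonal to the difference between them, by which the genes were chosen. Both are taken from the same arrays, so the tests of the mean do not rest on unused values. At 6 h this mean was above 0 h by 2.10 for Os09g37430 (SE 0.14, 4.29-fold, adjusted p = 9.76e-07, limma with Benjamini-Hochberg adjustment over all probe sets). Os09g37440 rose by 1.53 (SE 0.11, 2.88-fold, adjusted p = 2.02e-06). Os09g37490 rose by 1.92 (SE 0.25, adjusted p = 0.000159). The fit has no block for flank pairs, so where paired flanks deviate together the SE of their mean is too small. Against this, 27% of all probe sets tested were called in this comparison and 8.55% were called higher, with a median of -0.116 over all. Of the 3 genes, 3 were called higher. Nearly all of the rise lay in the lower flank, which at 6 h was 3.91, 3.02 and 3.40 above 0 h in the 3 genes, against 0.29, 0.03 and 0.43 for the upper flank. On the linear scale, relative to the array median, the mean signal of both flanks was 8.14, 4.57 and 5.93 times that of the shoot base at 0 h. A mean of unequal values is larger on the linear than on the log2 scale.

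At 0.5 h the mean of both flanks differed from 0 h by -0.11 for Os09g37430 (95% interval -0.42 to 0.19, adjusted p = 0.712), by 0.06 for Os09g37440 (-0.19 to 0.31, adjusted p = 0.812) and by -0.45 for Os09g37490 (-1.0 to 0.10, adjusted p = 0.358). In this comparison 3.77% of all probe sets were called, 0.922% higher and 2.84% lower. The sign for Os09g37430 turned positive when the arrays were not centred or when signals were averaged before the logarithm (0.06 and 0.31), and a change in either direction within these intervals was not detectable with 3 arrays per group. In linear signal relative to the array median, the mean of both flanks was 1.24, 1.20 and 0.832 times the signal at 0 h. The early difference between flanks of Os09g37430 and Os09g37440 was thus made up of a lower level in the upper flank and a higher level in the lower flank, of similar size in log2 units, and that of Os09g37490 mostly of a lower level in the upper flank.

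Between 0.5 h and 6 h the mean of both flanks rose by 2.21 for Os09g37430, by 1.46 for Os09g37440 and by 2.36 for Os09g37490 (adjusted p = 2.02e-08, 1.05e-07 and 1.6e-06), where 43.1% of all probe sets were called and 18.9% were called higher and 24.3% lower. Both flanks had gained: the lower flank stood 2.86, 2.16 and 3.17 above its own level at 0.5 h and the upper flank 1.56, 0.76 and 1.56. The flank difference itself was larger at 6 h than at 0.5 h by 1.31, 1.4 and 1.61 in the same order.

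Over the 15 arrays the 3 genes ran closely together, with a Pearson r of 0.99 between Os09g37430 and Os09g37440, 0.97 between Os09g37430 and Os09g37490 and 0.95 between Os09g37440 and Os09g37490. These correlations describe arrays that share their groups, and the choice of the genes enters them. After subtraction of the group means, the r was 0.83 for Os09g37430 with Os09g37490, and 0.24 and 0.18 for either with Os09g37440. In the upper flank at 0.5 h, for example, Os09g37430 and Os09g37490 were both lowest in replicate 2 and highest in replicate 3, whereas Os09g37440 was highest in replicate 2.

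The other SAUR genes of the array give the setting. Of these 10, 9 were bright enough to be tested. Os09g37380 (OsSAUR42) was not, with a mean log2 signal of -2.31 over the 15 arrays. All of the 10 but SAUR39 come from tables of flank differences that the study drew up on these samples. Their direction, the counts of calls and the p-values between flanks are therefore not independent evidence. At 6 h, 7 of the 9 were higher in the lower flank, none was lower, and the median difference was 1.81. Over all probe sets tested, 1.75% were called in this comparison (1.47% higher and 0.283% lower) and the median was -0.0796. Os09g37500 (OsSAUR55), called Aux2 in the study, differed by 2.34 (SE 0.25, adjusted p = 0.000231), and Os09g37460 (OsSAUR51) by 2.23 (SE 0.18, adjusted p = 2.09e-05). Os09g37480 (OsSAUR53) and Os09g37369 (OsSAUR41) differed by 2.17 and 2.08 (adjusted p = 6.14e-05 and 0.00207). Os09g37369 passed the filter on dim probe sets only through the lower flank at 6 h, where it is high, so its calls at 6 h lend no support (6 of 8 were higher without it), and without the arrays of replicate 1 its adjusted p was 0.122.

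Off chromosome 9, Os08g02520 (OsSAUR31) was higher by 1.81, Os02g24700 (OsSAUR8) by 1.51 and Os04g56680 (OsSAUR22) by 1.03 in the 6 h lower flank (adjusted p = 0.000136, 0.000108 and 0.00882). The call for Os04g56680 was lost without replicate 2 of the 6 h lower flank (adjusted p = 0.0547), without the filter on dim probe sets (0.0542) and with only the 6 h arrays in the fit (0.0702). The other two did not pass: Os02g24740 (OsSAUR9) differed by 0.88 (adjusted p = 0.131, and 0.0341 with flank pairs as a block) and SAUR39, known in rice as a repressor of auxin synthesis and transport, by -0.29 (adjusted p = 0.772). The nearest probe set that is no SAUR gene, that of LOC4347767, lies 4 places beyond Os09g37490 in the RefSeq order and differed by -0.15 at 6 h (adjusted p = 0.815).

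At 0.5 h none of the 9 passed limma's threshold. Of the 9, 6 had an unadjusted p under 0.05 and all 9 differences were above 0, with a median of 0.73. All but SAUR39 were listed by the study for a flank difference in these samples, so these counts are not independent evidence. Of all probe sets, 0.00699% passed the threshold, 3.21% had an unadjusted p under 0.05 and 33.5% lay above 0. Os09g37460 came nearest, at 1.33 (SE 0.18, adjusted p = 0.0518), and passed without replicate 3 of the upper flank at 0.5 h (adjusted p = 0.00684). Its arrays read 1.33, 0.85 and 1.66 in the upper flank, 2.56, 2.58 and 2.71 in the lower flank and 2.30, 2.27 and 2.38 at 0 h.

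**Figure D3:**
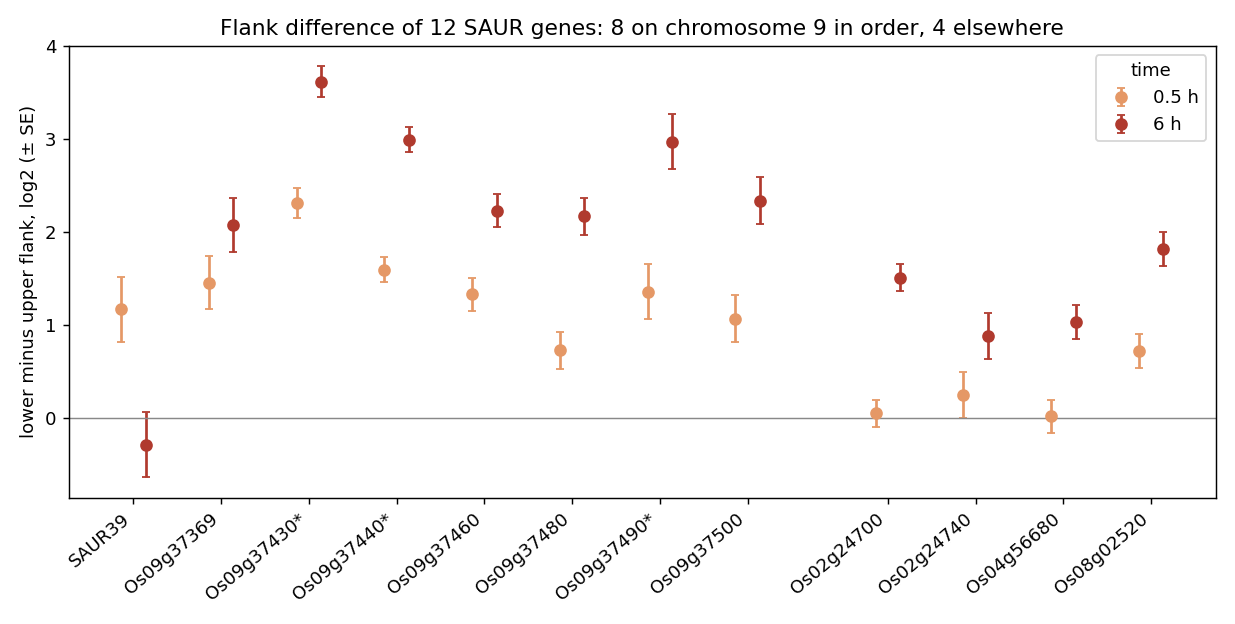
Lower minus upper flank in log2 units (vertical axis, points ± SE) at 0.5 h (light) and 6 h (dark) for 12 SAUR genes along the horizontal axis, 8 of chromosome 9 in order and then 4 of other chromosomes; asterisks mark the 3 genes of the report. SAUR39 is the one gene whose point at 6 h lies below 0, at -0.29.

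Set against the upright shoot base, the chromosome 9 genes and the others reached their flank difference at 6 h from different sides. The values of each flank against 0 h are given here without a test. In Os09g37369, Os09g37460, Os09g37480 and Os09g37500 the lower flank at 6 h stood 1.96, 2.89, 2.07 and 2.42 above 0 h, while the upper flank lay between -0.12 and 0.67 of it, as in the 3 genes. In Os02g24700, Os04g56680 and Os08g02520 the lower flank was instead close to 0 h, at 0.01, -0.19 and 0.18, and the upper flank lay at -1.50, -1.23 and -1.63. Os02g24740 lay below 0 h in both flanks, at -2.04 in the lower and -2.92 in the upper. SAUR39 lay above 0 h in both, at 1.75 in the lower and 2.04 in the upper.

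The mean of both flanks, which was tested, is the average of the upper and lower values just given. Its division of the family is therefore not separate evidence. Os09g37369, which entered the test through its 6 h lower flank, is left aside there (0.92, adjusted p = 0.0158). At 6 h all 8 further genes were called against 0 h, and 4 rose and 4 fell, where 27% of all probe sets were called, 8.55% higher and 18.4% lower. The 4 that rose were those of chromosome 9, from 0.99 for Os09g37480 through 1.25 for Os09g37500 and 1.78 for Os09g37460 to 1.89 for SAUR39. The 4 that fell were the others, at -0.71 for Os04g56680, -0.72 for Os08g02520, -0.74 for Os02g24700 and -2.48 for Os02g24740. SAUR39 stands among those that rose although its lower flank was not the higher one at 6 h (-0.29 between flanks). The division by chromosome was seen in these values and was not tested. Os09g37369 lost its call without the arrays of replicate 1 (adjusted p = 0.08), without replicate 2 at 0 h (0.0788), without the filter (0.0539) and without centring (0.0607), and Os08g02520 on the linear scale (adjusted p = 0.0816).

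**Figure D4:**
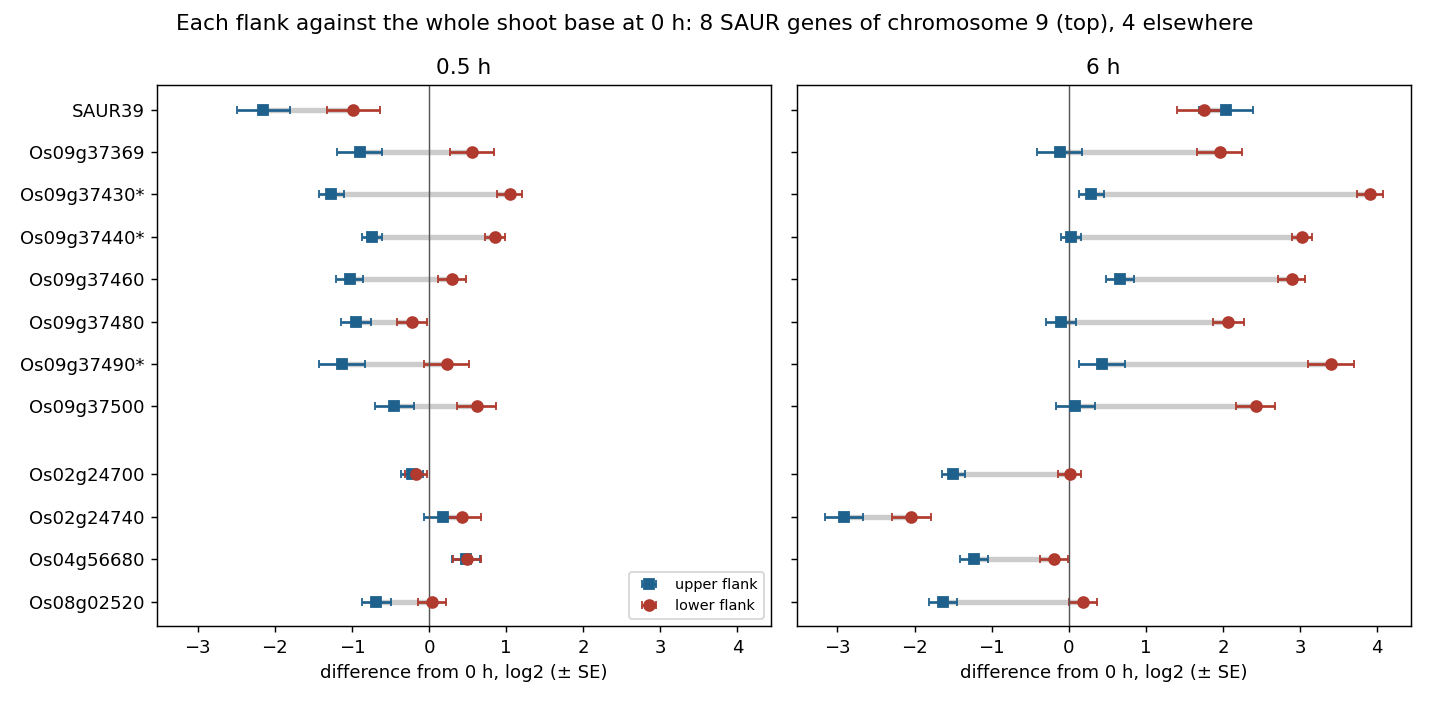
Difference of the upper flank (blue squares) and the lower flank (red circles) from the whole shoot base at 0 h, in log2 units ± SE along the horizontal axis, at 0.5 h (left) and 6 h (right) for 12 SAUR genes; asterisks mark the 3 genes of the report. At 6 h the lower flank of the 3 genes lies at 3.02 to 3.91 with the upper flank near 0, whereas in Os02g24700 the lower flank lies at 0.01 and the upper flank at -1.50.

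At 0.5 h, 1 of the 9 changed over both flanks together, SAUR39, which fell by 1.56 (SE 0.30, adjusted p = 0.0159). That call was lost without replicate 1 at 0 h (adjusted p = 0.0509), without all arrays of replicate 1 (0.103), without the filter (0.0768) and on the linear scale (0.0574). Os04g56680 did not pass here, at 0.48 (adjusted p = 0.108), and was called as a rise with the replicate block (0.00875), without centring (0.0276), after quantile normalization (0.0206) and with log2(signal + 16) (0.0195). By 6 h the mean of SAUR39 stood 3.46 above that at 0.5 h (adjusted p = 2.72e-07). Between these times the 4 genes of chromosome 9 rose and the 4 others fell, against 43.1% of all probe sets called, 18.9% higher and 24.3% lower. The fall of Os08g02520 (-0.40, adjusted p = 0.0238) was not called without the filter (0.0762), on the linear scale (0.46) or without any 1 of 6 single arrays (0.0514 to 0.0619), and that of Os02g24700 was not called on the linear scale (0.101).

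The flank difference grew from 0.5 h to 6 h, by test, in 2 of the 9 (0.545% of all probe sets were called for a change of the flank difference, 0.496% for a higher one). Os02g24700 went from 0.05 to 1.51, a change of 1.46 (SE 0.21, adjusted p = 0.00553), and Os09g37480 from 0.73 to 2.17, a change of 1.44 (SE 0.28, adjusted p = 0.0419). Both genes come from the study's tables of flank differences, so these calls are not independent evidence. The first lost its call without centring (adjusted p = 0.498) and without the arrays of replicate 1 (0.129). The second lost its call in most of the alternatives tried, among them the fit with flank pairs as a block (adjusted p = 0.0502), in which Os04g56680 gained one (1.02, adjusted p = 0.0228).

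The profile of the 3 genes over the 15 arrays was most like that of their SAUR neighbours. Likeness was measured as Pearson's r with the mean of the 3 profiles, each scaled to an SD of 1, and is a description. Among all probe sets tested Os09g37460 stood directly after the 3 genes themselves (r = 0.977), Os09g37500 was the fifth (0.973), Os09g37480 the seventh (0.959) and Os09g37369 the eighth (0.955). Os09g37369 was tested only through its high lower flank at 6 h, the group highest in the 3 genes too, so its rank lends no support. The r was 0.61 for SAUR39, 0.46 for Os08g02520, 0.26 for Os02g24700, -0.15 for Os04g56680 and -0.44 for Os02g24740. The 5 nearest probe sets with 1 named gene that is no SAUR were those of LOC4348152 (Os10g07229, described as alcohol dehydrogenase 2; r = 0.944), LOC4349327 (Os10g40480, a cortical cell-delineating protein; 0.921), IAA14 (0.919), LOC4343626 (Os07g37830, a CYP37 peptidyl-prolyl isomerase; 0.919) and LOC4339334 (Os05g44200, described as APG; 0.915).

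In all 5 the lower flank at 6 h had the highest group mean, which follows from the choice by likeness. IAA14, a repressor of auxin response that is itself induced by auxin, read 2.54 ± 0.33 in the 6 h lower flank and between 0.11 and 0.58 in the 4 other groups (mean ± SD, n = 3), of which the 0.5 h upper flank was lowest and the 0.5 h lower flank highest. LOC4349327 read 5.56 ± 0.21 in the lower flank at 6 h, 2.46 in the upper flank and between 1.90 and 2.03 at 0.5 h and 0 h. LOC4348152 spanned a small range, from 2.64 ± 0.20 in the upper flank at 0.5 h to 3.63 ± 0.19 in the lower flank at 6 h.

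Further genes of the auxin pathway also differed between flanks at 6 h, where 1.47% of all probe sets were called higher and 0.283% lower. Some names of the annotation stand for more than 1 RefSeq gene (IAA1, IAA20, ARF2 and ARF10 for 2 each), and genes were counted, not names. Of 25 Aux/IAA repressor genes tested, which shut off auxin-responsive transcription until auxin has them degraded, 9 had more and 1 had less signal in the lower than in the upper flank at 6 h by limma's test, and the median difference was 0.39. IAA20 (LOC4340245, Os06g07040) differed by 4.93 (adjusted p = 4.73e-05), IAA9 by 2.90 (adjusted p = 0.000546) and IAA14 by 2.11 (adjusted p = 0.00317). IAA18 was the one lower, at -1.18 (adjusted p = 0.0348). Of 16 auxin response factors, the transcription factors that bind auxin-responsive promoters, 3 were higher, and the median was 0.01. The ARF10 gene LOC4336419 was higher by 1.33 (adjusted p = 0.00696), while the other gene of that name, LOC4341882, differed by 0.01 (adjusted p = 0.98). Of 9 GH3 genes, whose enzymes conjugate auxin to amino acids, GH3.2 was higher by 2.27 (adjusted p = 0.000875). Of 5 auxin carriers, the efflux carrier PIN3a was higher by 1.18 (adjusted p = 0.00148). YUCCA1, of auxin synthesis, differed by 0.93 (adjusted p = 0.199). At 0.5 h limma called 0 genes in each of these lists, and at an unadjusted p under 0.05 only 1, among the carriers, where 0.00699% of all probe sets were called and 3.21% had an unadjusted p under 0.05. Counts of 0 are near that background.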

How the data were processed

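RNA from 15 samples of rice shoot base was amplified in 2 rounds by the authors, labelled with biotin and hybridised to 1 array each. The deposited table holds 1 signal per probe set and array, a linear intensity that the authors calculated with GCOS (the labels name MAS5). Its scaling target is not given here, and the centring on chip and gene medians that the authors describe for their tests is not in these values. An array signal has no count behind it, so the number of arrays limits the precision.

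Signals were taken to log2 and centred on the median of each array. After 121 control probe sets had been left out, the 50% with the highest mean were tested (28630). The linear model of limma 3.58.1 (R 4.3.3) had a mean for each of the 5 groups of 15 arrays (10 residual and 2.67 prior degrees of freedom) and Benjamini-Hochberg adjustment over all probe sets, called at 0.05. The methods' variance-moderated ANOVA is closest to limma. Detection calls were not used. No sequences are given.

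The 3 genes, the lists and the comparisons were chosen with earlier results of these data known. Genes were named through the array's annotation and RefSeq (assembly ASM3414082v1, names and order only), in which 22436 probe sets carry 1 gene, 95 several and 34850 none, and through the study's tables, which describe 1241. For a gene with several probe sets the brightest that names it alone was used. Named are the 3 genes, the other SAUR genes of the study's tables, SAUR39 from the family list, genes with a probe set within 5 places of Os09g37490 in RefSeq order, the 5 named genes of most similar profile, and up to 3 called genes in each auxin list. No auxin receptor was matched by symbol.

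Upper and lower flanks of 1 time and replicate number deviated together from their group means (r = 0.50, 0.224 and 0.242 at 0.5 h, and 0.476, 0.261 and 0.408 at 6 h), all above the limit of 0.1 for treating them as pairs. Against 0 h this held only for the 0.5 h lower flank. The values given come from a fit with no block. Where paired flanks deviate together, such a fit gives too small an SE for their mean and too large an SE for their difference. Alternatives were no centring, quantile normalization, log2(signal + 16), no filter, an intensity trend, only the arrays compared, a replicate block, and each array left out. Leaving out all arrays of replicate 1 and averaging flanks on the linear scale were added after the data had been seen.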

Additional observations from a re-analysis of the deposited data

Results flagged for a closer look

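At 0.5 h, each array of the lower flank lay above, and each of the upper flank below, every array at 0 h in 3 SAUR genes. The lower flank differed from 0 h by 1.04 and the upper flank by -1.27 on the log2 scale for Os09g37430. These differences were 0.86 and -0.74 for Os09g37440, and 0.30 and -1.03 for Os09g37460. That the flanks moved in opposite directions was not tested. For Os09g37460 limma called the upper flank at 0.5 h against 0 h (adjusted p = 0.016) but not the lower flank (adjusted p = 0.418). The first 2 genes were chosen for their flank difference, and Os09g37460 comes from the tables that the study drew up on these samples.

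The flank difference changed between 0.5 h and 6 h, by limma's test of that change, in 2 SAUR genes. It was larger at 6 h by 1.46 for Os02g24700 (adjusted p = 0.00553) and by 1.44 for Os09g37480 (adjusted p = 0.0419). Both genes come from the tables of flank differences that the study drew up on these samples. With 3 arrays per group, single arrays were not examined as outliers.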

How the results depend on the processing

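The rise of the mean of both flanks from 0 h and from 0.5 h to 6 h kept its direction and its call in Os09g37430, Os09g37440 and Os09g37490 under every alternative tried. The highest adjusted p was 0.000902, 0.00118 and 0.0122 against 0 h, and 9.69e-05, 0.000162 and 0.00147 against 0.5 h. All of these fits use the arrays by which the genes were chosen, those of the lower flank at 6 h among them. Keeping the call is therefore no support from unused values. With the replicate block the values of the 3 genes were the same (2.10, 1.53 and 1.92 at 6 h against 0 h). This was fixed by the design, since each group holds the same replicate numbers, and only the SE and the p-value could change. The pairs as a block gave 8 rather than 7 other SAUR genes called between flanks at 6 h, with Os02g24740 added. The block changed no other count by over 1.5 times except the one at 0.5 h against 0 h, given next.

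At 0.5 h the sign of the mean of both flanks against 0 h was not settled in 2 genes. For Os09g37430 it was 0.058 without centring, 0.015 after quantile normalization, 0.016 with log2(signal + 16) and 0.31 on the linear scale, in place of -0.11. For Os09g37440 it was -0.0002505 without the arrays of replicate 1, and it ranged from -0.028 to 0.14 over the single arrays left out. The count of other SAUR genes called there, 1, was 2 (SAUR39 lower and Os04g56680 higher) without centring, after quantile normalization, with log2(signal + 16) and with the replicate block, 0 without the filter, without replicate 1 and on the linear scale, and 0 to 1 over the arrays left out. The count called between flanks at 0.5 h, 0, was 1 with log2(signal + 16) and with an intensity trend, and 0 to 1 over the arrays left out. The count whose flank difference changed with time, 2, was 1 after quantile normalization, without the filter and with only the arrays compared, 0 without centring and without replicate 1, and 1 to 2 over the arrays left out.

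With log2(signal + 16), which compresses low signals by construction, the flank difference was 2.05 for Os09g37430 and 1.47 for Os09g37440 at 0.5 h, and 2.82 for Os09g37440 and 2.76 for Os09g37490 at 6 h. Without centring that of Os09g37440 at 0.5 h was 1.81. Values near 0 changed sign for Os04g56680 between flanks at 0.5 h (-0.16, -0.0043 and -0.073 with single arrays left out, -0.049 without replicate 1). They also did so for the mean of both flanks at 0.5 h against 0 h of Os09g37369 (0.012 on the linear scale) and of Os09g37500 (-0.041, -0.012 and -0.041 with single arrays left out). Apart from the effects of construction named here, the cause was not tested. The number of arrays limits the differences that could be called at 0.5 h.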
